A study of Brassica juncea with 2 samples.

Results

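The unigenes described here are assembled transcripts of Indian mustard (B. juncea var. CS52) that were assigned to the iron-deficiency basic helix-loop-helix (bHLH) transcription factors. They comprise 5 of the 47513 unigenes in the deposited table. Of these, Bju_CS52_R_18220, Bju_CS52_R_16438, Bju_CS52_R_8014 and Bju_CS52_R_15330 carry the same B. rapa match, Bra014659, and the annotation "basic helix-loop-helix (bHLH) DNA-binding superfamily protein". The primer list of the study names Bju_CS52_R_18220 as bHLH039. The other member, Bju_CS52_NR_17755, belongs to the non-rapa unigenes, which did not match B. rapa, and is annotated as transcription factor ORG3. The primer list calls the same unigene bHLH101, so the 2 sources name different genes and which of them it represents was not resolved. The members were chosen by their unigene IDs with their values in these 2 libraries already known, so all their levels and ratios are given as a description, without a test.

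The salinity-stressed library (SS) was prepared from CS52 seedlings, about 2 weeks old and grown hydroponically, after 24 h in 200 mM salt. The control library (CTRL) was prepared from seedlings of the same age and variety collected at the same time from water. Tissue from about 10 seedlings was pooled for each, giving 1 library per condition, so the sequencing values hold no replicates and no p-value is given. Mapped reads totalled 73982305 in SS and 77863618 in CTRL, and levels are given in RPKM, reads scaled to the length of the unigene and to the high-quality reads of the library. The deposited SS values lack the length scaling, so the SS levels below were recalculated with the length of each unigene. Without it the ratios of SS to CTRL come out higher for long unigenes and lower for short ones. All intervals are 95% intervals (exact Poisson for a level, Clopper-Pearson for a ratio) and reflect only the counting of reads. The tissue is given only as seedlings, and in such bulk RNA fewer cells of a type and less RNA per cell cannot be told apart.

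In Arabidopsis, bHLH038 (ORG2), bHLH039 (ORG3), bHLH100 and bHLH101 form a small subgroup of bHLH factors whose transcripts accumulate when iron is scarce. Their proteins pair with FIT, another bHLH factor, and the pairs switch on root iron uptake genes such as the ferric chelate reductase FRO2 and the iron transporter IRT1. Leaves and roots both express the subgroup, which makes it a widely used marker of iron status.

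The primers designed on Bju_CS52_R_18220 and Bju_CS52_NR_17755 are shown because they are the sequences of these unigenes that tie them to the names bHLH039 and bHLH101. The study used them for qPCR, which was not analysed here. They are written 5′ to 3′, and capitals mark the last 5 bases at the 3′ end, from which extension starts.
bHLH039 forward: cttgattttccagcaccAGAGA
bHLH039 reverse: gacccccaacatttcttgAATCT
bHLH101 forward: caacaagaatggtactctacttcAACAA
bHLH101 reverse: ggataaagagaagaagggagagTAGGA
The bHLH039 primers have 22 and 23 bases with a GC content of 45.5% and 43.5%. The bHLH101 primers have 28 and 27 bases with 35.7% and 44.4% GC.

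All 5 unigenes were lower in SS than in CTRL, and 3 of the 4 bHLH039 unigenes had 0 reads in SS. The ORG3-annotated unigene, Bju_CS52_NR_17755, had 144 reads in SS and 9009 reads in CTRL on 1083 bp. This corresponds to 1.48 RPKM in SS (interval 1.25 to 1.74) and 87.7 RPKM in CTRL (85.9 to 89.6). Its level in SS was 59.2-fold lower, with an interval from 50.2 to 70.3, and the log2 ratio of SS to CTRL, with 0.1 RPKM added to both levels, was -5.80. It was the only member with a level above 1 RPKM in SS.

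Bju_CS52_R_18220, the best covered bHLH039 unigene, had 6 reads in SS and 571 reads in CTRL on 999 bp. The levels were 0.0669 RPKM in SS (interval 0.0246 to 0.146) and 6.03 RPKM in CTRL (5.54 to 6.54). The ratio of SS to CTRL was 0.0111 (0.00406 to 0.0243), which is 90.1-fold lower (41.1 to 247), and the log2 ratio was -5.20. With only 6 reads in SS, the size of this difference is loosely determined. Its interval contains the whole interval of Bju_CS52_NR_17755, whose ratio was 0.0169 (0.0142 to 0.0199), so counting error does not separate the ratios of the bHLH039 and the ORG3-annotated unigene.

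The remaining bHLH039 unigenes had 0 reads in SS, and their difference is given against a floor of 3 reads in that library. Bju_CS52_R_16438 had 0 reads in SS and 199 in CTRL on 878 bp. Its 2.39 RPKM in CTRL (2.07 to 2.75) makes it 62.8-fold lower in SS at the floor, with a lower limit of 50.6-fold. Bju_CS52_R_8014 had 0 reads in SS and 50 in CTRL on 479 bp, with 1.10 RPKM in CTRL (0.817 to 1.45). It was 15.8-fold lower at the floor, with a lower limit of 12.4-fold. Bju_CS52_R_15330 had 0 reads in SS and 28 in CTRL on 811 bp, with 0.364 RPKM in CTRL (0.242 to 0.526). It was 8.84-fold lower at the floor, with a lower limit of 6.72-fold. These bounds follow the CTRL counts, because a deeper CTRL count allows a larger bound. None of them orders the 3 copies by the size of their difference.

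**Figure D1:**
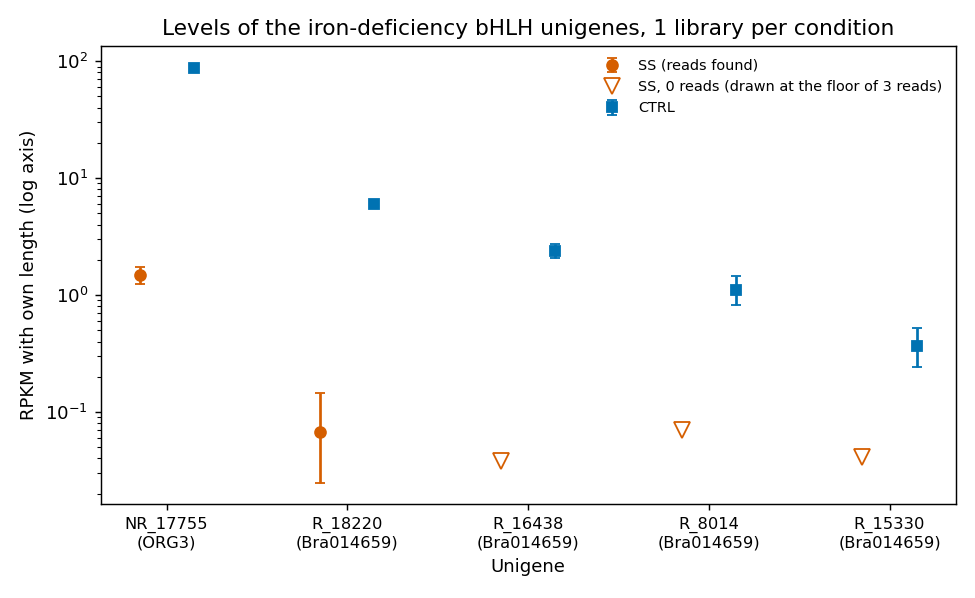
RPKM of the 5 unigenes (log axis) in SS (circles, or open triangles at the floor of 3 reads where SS had 0 reads) and CTRL (squares), with exact Poisson 95% intervals of the reads. Each SS value lies below the CTRL value of the same unigene, and only NR_17755 is above 1 RPKM in SS.

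The order of levels in CTRL was Bju_CS52_NR_17755, Bju_CS52_R_18220, Bju_CS52_R_16438, Bju_CS52_R_8014 and Bju_CS52_R_15330, and no interval overlapped that of its neighbour. In SS the order could be read only at the top. Bju_CS52_NR_17755 lay above Bju_CS52_R_18220 without overlap, whereas 0 reads allow up to 0.0468 RPKM for Bju_CS52_R_16438, 0.0858 for Bju_CS52_R_8014 and 0.0507 for Bju_CS52_R_15330, which all overlap the interval of Bju_CS52_R_18220. Across the copies with the match Bra014659, the CTRL level of the highest was 2.52-fold above Bju_CS52_R_16438, 5.48-fold above Bju_CS52_R_8014 and 16.6-fold above Bju_CS52_R_15330. Bju_CS52_R_18220 held 67.3% of the CTRL reads of these copies, Bju_CS52_R_16438 23.5%, Bju_CS52_R_8014 5.90% and Bju_CS52_R_15330 3.30%.

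How alike the unigenes with the match Bra014659 are in sequence was not examined. If they share reads, the split between them depends on the mapping and the sum is the more robust quantity. Together the copies had 6 reads in SS and 848 in CTRL, a ratio of 0.00747 (0.00273 to 0.0163), which is 134-fold lower. The 3 copies without SS reads had 277 reads in CTRL. At the ratio of Bju_CS52_R_18220 these would give 2.91 reads in SS, and the upper limit of their joint ratio, 0.0142, lies above the ratio of Bju_CS52_R_18220. A stronger difference in these 3 copies than in Bju_CS52_R_18220 was therefore not detectable at this depth.

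The ORG3-annotated unigene made up most of the signal of the group in both libraries. It held 95.7% of the summed RPKM of the 5 unigenes in SS and 89.9% in CTRL. Relative to the sum of the bHLH039 copies it was 22.1-fold higher in SS and 8.88-fold higher in CTRL, where the SS value rests on the 6 reads of Bju_CS52_R_18220.

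Against the whole table, 4 of the 5 unigenes reached the minimum of 1 RPKM in either library, each of them through its CTRL level, and Bju_CS52_R_15330 did not. All 4 were at least 2-fold lower in SS, where 1820 of 43250 unigenes were at least 2-fold lower (4.21%) and 828 at least 2-fold higher (1.91%), on log2 of RPKM plus 0.1. All 4 were also at least 10-fold lower, as were 215 of all unigenes (0.497%), while 160 unigenes were at least 10-fold higher (0.37%). Since the unigenes were chosen on this contrast, nothing can be read from these shares. The median log2 ratio over all 43250 unigenes was -0.06.

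**Figure D2:**
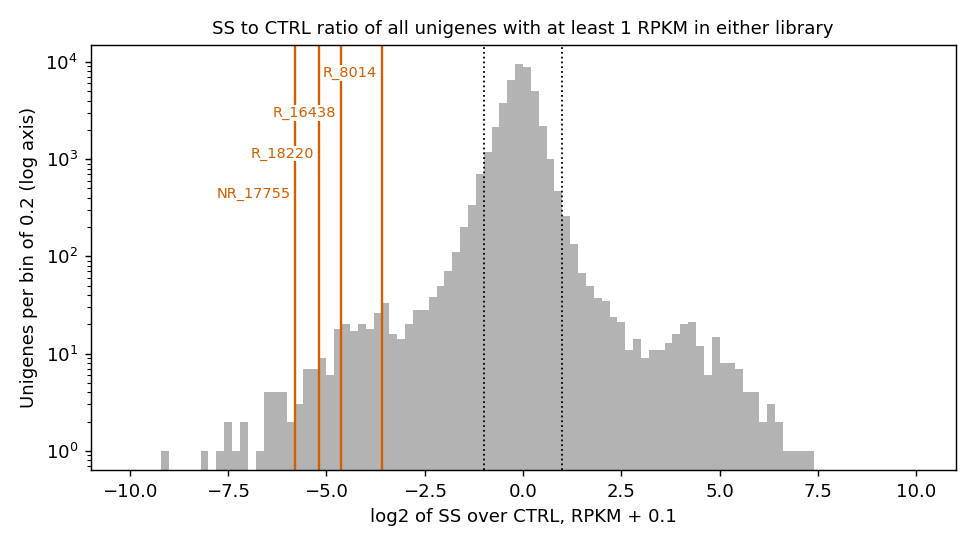
Number of unigenes (log axis) by log2 ratio of SS to CTRL for the 43250 unigenes that reached 1 RPKM in SS or CTRL, with dotted lines at 2-fold and orange lines at the 4 iron-deficiency bHLH unigenes that reached the minimum. The lines of NR_17755 at -5.80 and R_18220 at -5.20 lie in the low tail, and those of R_16438 and R_8014, with 0 reads in SS, stand where the added 0.1 RPKM puts them.

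Counting from the lowest log2 ratio, Bju_CS52_NR_17755 was in position 24 and Bju_CS52_R_18220 in position 41 of the 43250. Among 1604 unigenes with at least 50 RPKM in CTRL, 5 were at least 10-fold lower in SS, and Bju_CS52_NR_17755 had the highest CTRL level of these and was the only one with an annotation. The others were Bju_CS52_NR_16703, Bju_CS52_NR_18540, Bju_CS52_NR_19172 and Bju_CS52_NR_8664, with log2 ratios from -9.09 to -3.39, and like Bju_CS52_NR_17755 they are non-rapa unigenes. They were singled out after their values were seen.

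Within the bHLH family Bju_CS52_NR_17755 held a high position only in CTRL. Among 162 unigenes, the bHLH-annotated ones plus Bju_CS52_NR_17755, it was in position 118 by RPKM in SS and in position 1 in CTRL. The next unigene in CTRL, Bju_CS52_R_18899, had 37.2 RPKM in SS and 36.4 in CTRL. Bju_CS52_R_18220 was in position 159 in SS and 45 in CTRL.

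Apart from the members, 146 bHLH-annotated unigenes reached 1 RPKM in either library. Of these, 7 were at least 2-fold lower and 5 at least 2-fold higher in SS, beside 4.21% and 1.91% of all unigenes. The median log2 ratio of the 146 was -0.16, beside -0.06 over all unigenes. The lower ones ranged from -1.69 (Bju_CS52_R_4672) to -1.07 (Bju_CS52_R_3246), all closer to 0 than the members. The members were chosen on this contrast, so nothing is read from that distance. The higher ones ranged from 1.08 (Bju_CS52_R_22949) to 5.46 (Bju_CS52_R_4310, the RITF1 homolog, a factor linked to salt tolerance in Arabidopsis), with Bju_CS52_R_24195, Bju_CS52_R_4457 and Bju_CS52_R_19633 between them. Bju_CS52_R_4310 had 230 reads in SS and only 2 in CTRL, so its ratio of 121 is loosely determined (33.2 to 1009).

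**Figure D3:**
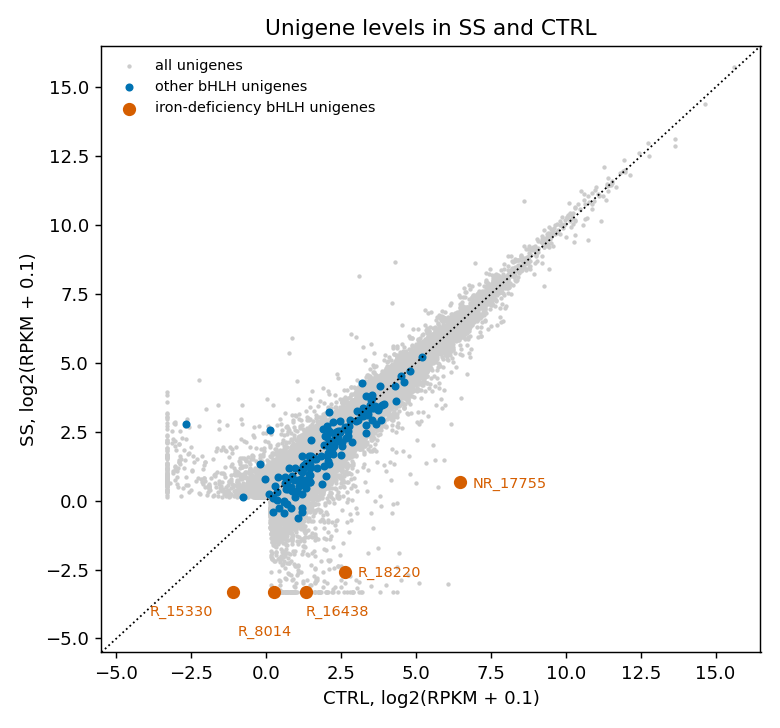
SS level against CTRL level, both as log2 of RPKM plus 0.1, for all unigenes that reached 1 RPKM in SS or CTRL (grey), other bHLH-annotated unigenes (blue) and the 5 iron-deficiency bHLH unigenes (orange), with a dotted line of equal levels. Most blue points follow the line, while the orange points lie below it, with 3 of them at 0 reads in SS, among them R_15330, which is under the minimum. The orange points were chosen on this contrast.

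The copies of the bHLH039 match were all lower, which their choice already fixed, and nothing is read from the following count. Of 1265 B. rapa matches carried by at least 4 unigenes, 3 (0.237%) had every unigene at least 2-fold lower in SS, without a minimum level. Bra014659 was one of them, and the others were Bra003187, which has no description in the table, and Bra020267, a nuclear RNA polymerase C1. The log2 ratios ran from -1.29 to -1.08 for Bra003187 and from -2.88 to -2.26 for Bra020267.

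Other regulators of the iron response were looked for by annotation words, which found 4 unigenes. FIT, the partner of the bHLH039 and bHLH101 proteins in Arabidopsis, was found as Bju_CS52_R_18979 (FER-like regulator of iron uptake). It had 154 reads in SS and 97 in CTRL, or 1.63 RPKM in SS and 0.972 RPKM in CTRL. The ratio was 1.68 (1.29 to 2.19), so its transcript was higher in SS while those of its partners were lower, although it did not reach 2-fold.

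MYB10, a factor that in Arabidopsis acts in the same response and promotes nicotianamine synthase expression, was represented by 2 unigenes under 1 RPKM in both libraries. Bju_CS52_R_6345 had 0 reads in SS and 29 in CTRL, 9.15-fold lower at the floor of 3 reads, with an upper limit of the ratio of 0.143. Bju_CS52_R_1296 had 0 reads in SS and 20 in CTRL, 6.31-fold lower at that floor, with an upper limit of the ratio of 0.214. Both therefore shared with the 3 weaker bHLH039 copies the absence of SS reads, at low depth. The highest of this list in CTRL was OBP3-responsive gene 4 (Bju_CS52_R_12729). It entered the list by its annotation words and need not be a regulator of the iron response. It had 5.35 RPKM in SS and 7.18 RPKM in CTRL, a log2 ratio of -0.42. No annotation used here held the words for bHLH038, bHLH100, POPEYE, BRUTUS or IRT1, and these genes were not analysed. Some of them could be among the unigenes with only the general bHLH annotation, which the bHLH039 copies also carry.

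The name ORG stands for OBP3-responsive gene, and ORG1 is a kinase-like gene of that group in Arabidopsis. No unigene matched it in the deposited annotation. The study's own table of unigenes lower in SS ties Bju_CS52_NR_13527 to it, and this unigene was looked up after that. It had 126 reads in SS and 525 in CTRL on 694 bp, or 2.02 RPKM in SS and 7.98 RPKM in CTRL, and a ratio of 0.254 (0.207 to 0.308). The difference was smaller than that of the ORG3-annotated unigene, without overlap of the intervals.

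The uptake unigenes were found by annotation words and had no common direction. They need not be targets of the bHLH factors, and IRT1 is not among them. The 17 uptake unigenes with at least 1 RPKM had a median log2 ratio of -0.12. Of these, 0 were at least 2-fold lower and 1 was at least 2-fold higher in SS, beside 4.21% and 1.91% of all unigenes. FRO2, the root ferric chelate reductase, was represented by Bju_CS52_R_28499, with 492 reads in SS and 567 in CTRL (ratio 0.917, interval 0.811 to 1.04), and by Bju_CS52_R_29099, with 1180 reads in SS and 1161 in CTRL (ratio 1.07, 0.989 to 1.17). Both intervals include 1, and neither includes a 2-fold difference, with the length scaling of the SS levels. FRO7, the chloroplast ferric reductase (Bju_CS52_R_29216), was the highest of the list with 43.1 RPKM in SS and 28.6 RPKM in CTRL, a ratio of 1.51 (1.46 to 1.55).

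PDR9, an ABC transporter that exports phenolic compounds from iron-deficient Arabidopsis roots, was split over 7 unigenes. The longest, Bju_CS52_R_30487, had 5841 reads in SS and 12290 in CTRL, a ratio of 0.502 (0.487 to 0.518). Bju_CS52_R_30385, with the same B. rapa match on 3998 bp, went the other way with 912 reads in SS and 34 in CTRL, a ratio of 28.3 (20.1 to 41.2). Bju_CS52_R_18541 was also higher in SS, with a ratio of 1.91 (1.55 to 2.37), as was Bju_CS52_R_2920 at 1.36 (0.944 to 1.96). The remaining PDR9 unigenes were lower in SS. From the summed reads of the 7 unigenes, 7989 in SS and 14046 in CTRL, the ratio was 0.601 (0.584 to 0.618). This ratio does not involve the lengths, and most of the CTRL reads come from Bju_CS52_R_30487. The SS values as deposited, set beside the length-scaled CTRL values, would not keep this direction.

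The 27 transport unigenes had a median log2 ratio of 0.30. Of these, 2 were at least 2-fold lower and 3 at least 2-fold higher in SS, beside 4.21% and 1.91% of all unigenes. The higher transport unigenes all encode nicotianamine synthase, which makes the iron chelator nicotianamine. Bju_CS52_R_21538 (NAS2) had 696 reads in SS and 318 in CTRL, a ratio of 2.31 (2.02 to 2.65). Bju_CS52_R_12861 (NAS3) had 118 reads in SS and 46 in CTRL, a ratio of 2.71 (1.91 to 3.90). Bju_CS52_R_889 (NAS4) had 39 reads in SS and 11 in CTRL, a ratio of 3.75 (1.88 to 8.11). The remaining one, Bju_CS52_R_8134 (NAS1), had 84 reads in SS and 49 in CTRL, a ratio of 1.81 (1.26 to 2.63), so every nicotianamine synthase unigene was higher in SS than in CTRL, opposite to the bHLH unigenes.

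The lower transport unigenes were NRAMP4, which releases iron from the vacuole (Bju_CS52_R_27410), and Bju_CS52_R_4209, annotated as YELLOW STRIPE like 8. Bju_CS52_R_27410 had 12.4 RPKM in SS and 25.7 RPKM in CTRL, a log2 ratio of -1.04 that turned to 0.19 with the SS values as deposited. Its difference also fell short of 2-fold with size factors (-0.98), with a running median removed (-0.97) and with a pseudocount of 1 RPKM (-0.99). Bju_CS52_R_4209 had 17 reads in SS and 60 in CTRL, a ratio of 0.299 (0.164 to 0.520), but 3 further unigenes with the same match were closer to 0, and summed over all 4 the ratio was 0.972. A vacuolar iron transporter family unigene under 1 RPKM in both libraries, Bju_CS52_R_869, had 9 reads in SS and 23 in CTRL, a ratio of 0.413 (0.168 to 0.927).

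Of 6 unigenes matched by the word ferritin, the plastid iron store, 0 were at least 2-fold lower and 0 at least 2-fold higher. Over all unigenes these shares were 4.21% and 1.91%. However, 1 ferritin unigene was past 2-fold higher with size factors (Bju_CS52_R_9994, log2 ratio 1.02). With a running median removed, 2 were past it (Bju_CS52_R_9994 at 1.16 and Bju_CS52_R_7837 just past it). The ferritin 3 unigenes Bju_CS52_R_787, Bju_CS52_R_7837 and Bju_CS52_R_9994 had ratios of 1.49, 1.80 and 1.95, with a lowest interval limit of 1.31, whereas with the SS values as deposited the log2 ratio of Bju_CS52_R_787 was -0.86. The 3 others share the match Bra032979 and carry the fold name ferritin/ribonucleotide reductase-like, which need not be ferritin. Their summed ratio was 0.746 (0.710 to 0.784), and the highest of them in CTRL, Bju_CS52_R_15407, had 10.8 RPKM in SS and 17.2 RPKM in CTRL.

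**Figure D4:**
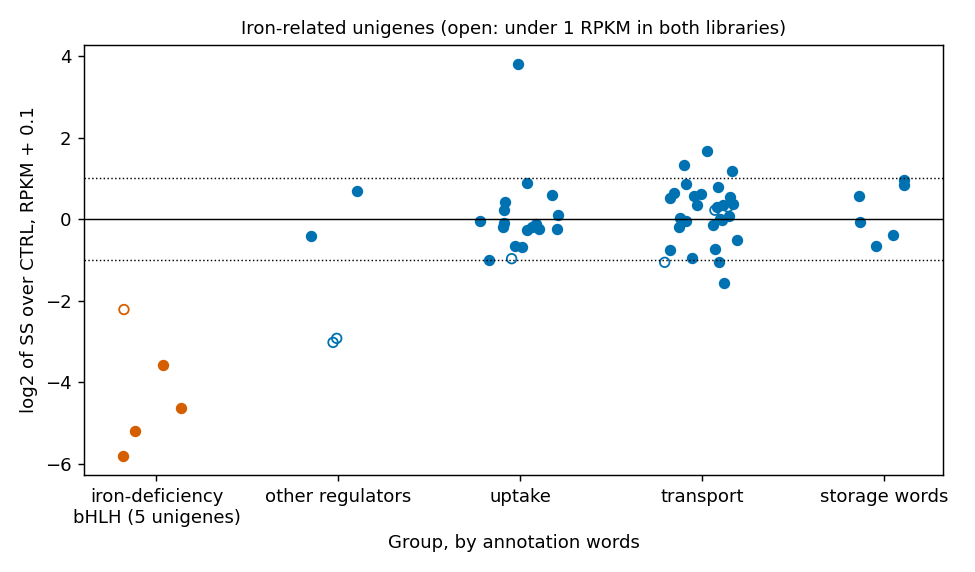
Log2 ratio of SS to CTRL, on RPKM plus 0.1, for 5 iron-deficiency bHLH unigenes (orange) and 58 other iron-related unigenes by annotation words (blue). Each point is 1 unigene, spread sideways at random. Open circles mark those under 1 RPKM in both libraries, and dotted lines mark 2-fold. The bHLH unigenes lie below -2, together with the 2 open points of MYB10 at -3.02 and -2.92, while the uptake, transport and storage unigenes spread on both sides of 0.

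Over these 58 unigenes, 52 reached the minimum, and their median log2 ratio was 0.01, beside -0.06 over all unigenes. Of the 52, 2 were at least 2-fold lower and 4 at least 2-fold higher, beside 4.21% and 1.91% of all unigenes. The share of each organ in the pooled tissue bears on genes of root and leaf. Leaf words (light harvesting, chlorophyll binding and rubisco small subunit) matched 26 unigenes with a summed level of 52995 RPKM in SS and 66537 RPKM in CTRL and a median log2 ratio of -0.24, with 4 at least 2-fold lower. Words for root hair genes and a root expansin matched 10 unigenes, 4 of them the more widely expressed RHD3, with a sum of 52.0 RPKM in SS and 50.8 RPKM in CTRL and a median of 0.01, with 0 past 2-fold in either direction among the 9 that reached the minimum. The part of the organ share in the lower bHLH levels was not tested.

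Likeness to the members was measured as the distance of SS and CTRL levels on log2 of RPKM plus 0.1 over the 2 libraries, among annotated unigenes of any level. The nearest to Bju_CS52_R_18220 were Bju_CS52_NR_10403, a Kunitz trypsin inhibitor domain protein (distance 0.71, with 6 reads in SS and 205 in CTRL), and Bju_CS52_R_2665, a P-loop nucleoside triphosphate hydrolase (0.71, with 2 reads in SS and 119 in CTRL). No annotated unigene came close to Bju_CS52_NR_17755: the nearest were Bju_CS52_R_10946, pathogenesis-related 4 (2.20, with 178 reads in SS and 1315 in CTRL), and Bju_CS52_R_4921, extensin 3 (2.22, with 30 reads in SS and 765 in CTRL). For the copies at 0 reads in SS, likeness to other unigenes with 0 reads in SS is set by the CTRL level alone. The nearest were Bju_CS52_R_11526 (reverse transcriptase-related) and Bju_CS52_NR_21618 (uncharacterized) to Bju_CS52_R_16438, Bju_CS52_R_785 (NB-ARC disease resistance protein) and Bju_CS52_NR_14877 (a rice identifier only) to Bju_CS52_R_8014, and Bju_CS52_NR_7718 (a hypothetical protein) and Bju_CS52_NR_8512 (uncharacterized) to Bju_CS52_R_15330, and each had 0 reads in SS.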

How the data were processed

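The authors assembled the reads of both libraries with Trinity, clustered the transcripts with CD-HIT-EST, mapped high-quality reads to the unigenes with BOWTIE2 and named DESeq for normalization. The deposited CTRL values are RPKM that include the length of the unigene. The SS values deposited beside them, also named RPKM, are a signal without length correction: all 47505 are within 0.01 read of whole multiples of 1 read on 849 bp, and whole reads were recovered from them.

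CTRL reads and lengths were recovered from the CTRL values alone, as the whole length that gives whole reads and lets lengths rise with the unigene number. A single length fitted for 47390 of 47392 unigenes with CTRL reads, among them all 5 described here, with 0 violations of the order, and 121 others took a length between their neighbours. SS RPKM used this length and the high-quality reads stated by the study. The recovery was run on simulated data made with the recovered lengths in the same order, which cannot test whether these lengths are right.

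Log2 ratios use a pseudocount of 0.1 RPKM and at least 1 RPKM in either library, which understates differences of low unigenes. Ratios without log2 carry no pseudocount. A library with 0 reads was set to 3 reads only for the fold differences given at the floor and for drawing in the levels figure. Log2 ratios, ratios, sums and intervals kept 0 reads. Intervals (SciPy 1.17.1) do not cover PCR duplicates or differences between seedling pools. Unigenes alike in sequence may have divided their reads.

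Iron-related unigenes were found by annotation words, with 4 lists for regulators, uptake, transport and storage. Named were the members, list unigenes past 2-fold or highest in CTRL, bHLH unigenes past 2-fold and the 2 nearest annotated unigenes to each member. FIT, FRO2, NAS1, ORG1, the further PDR9 unigene and ferritin unigenes were named after their values were seen. The members and lists were chosen with earlier results of these data known. Alternatives were pseudocounts of 0.01 and 1 RPKM, size factors, equal totals, the SS values as deposited, removal of a running median over 500 unigenes, no minimum and a minimum of 10 RPKM.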

Additional observations from a re-analysis of the deposited data

How the results depend on the processing

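The log2 ratios of the 5 bHLH unigenes stayed below 0 in all 30 values recalculated with other pseudocounts, scalings and the SS values as deposited, and 29 of these were at least 2-fold lower. Pseudocounts moved them most, because SS levels are at or near 0. With 0.01 RPKM the ratios were -6.29 for Bju_CS52_R_18220, -5.23 for Bju_CS52_R_15330, -7.91 for Bju_CS52_R_16438 and -6.80 for Bju_CS52_R_8014, and with 1 RPKM they were -2.72, -0.45, -1.76 and -1.07, while Bju_CS52_NR_17755 had -5.16. With the SS values as deposited, which lack the length correction, Bju_CS52_NR_17755 had -5.46. No paired analysis was possible because there is 1 library per condition, and leaving out a library was not possible for the same reason.

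Over all unigenes, 644 were at least 2-fold lower and 403 at least 2-fold higher with a pseudocount of 1 RPKM, 9144 and 7033 with the SS values as deposited, and 190 and 101 with a minimum of 10 RPKM. Among the iron lists together, 0 were lower and 1 higher with a pseudocount of 1 RPKM, 6 and 21 with the SS values as deposited, and 1 and 0 with a minimum of 10 RPKM. The lower count was 1 with size factors or with the running median removed, where Bju_CS52_R_27410 was the one lost, and 5 without a minimum. The SS values as deposited reversed Bju_CS52_R_27410 (0.19) and Bju_CS52_R_787 (-0.86), by the length factor alone. Scaling moved the median of all unigenes by less than 0.1 on the log2 scale, whereas that of the iron lists was 0.12 with the running median removed and 0.72 on the deposited SS values. The 3 nicotianamine synthase unigenes past 2-fold fell short of it with a pseudocount of 1 RPKM, and Bju_CS52_R_889 also with the SS values as deposited (0.38). Depth limits the SS ratios of the bHLH039 unigenes, which rest on 6 reads.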

Other observations

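Most unigenes with a large difference of this direction have no annotation. Of the 215 unigenes at least 10-fold lower in SS, 159 (74.0%) carried no description in the deposited table, against 43.8% of all 43250 unigenes that reached 1 RPKM in SS or CTRL. Among the 215, 31 had at least 10 RPKM in CTRL. Among unannotated unigenes of this kind with at least 50 RPKM in CTRL, Bju_CS52_NR_16703 had 2 reads in SS and 6034 in CTRL on 950 bp, and Bju_CS52_NR_18540 had 138 reads in SS and 5934 in CTRL on 1187 bp. Bju_CS52_NR_19172 had 308 reads in SS and 7554 in CTRL, and Bju_CS52_NR_8664 had 289 reads in SS and 3233 in CTRL. Their identity was not determined here.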
